A study of Astyanax mexicanus with 26 samples.

Results

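H3K27me3 was compared between adult livers of the Pachón cave and the Tinaja cave form of the Mexican tetra, *Astyanax mexicanus*, a fish with eyed surface populations and several blind cave populations. Each group was a cave morph: Pachón cave liver with 2 H3K27me3 libraries and Tinaja cave liver with 2 H3K27me3 libraries, all 4 carrying the number 2399 in the labels. No treatment or genetic change is given for any of them. All peaks of both deposited H3K27me3 lists were taken, overlapping or touching peaks were merged into regions, and each region was classed by the caves with a peak in it. This gave 127242 regions, from 98198 Pachón and 99370 Tinaja peaks out of 833231 peaks in the 9 lists of the series. The other 7 lists (H3K27me3 of surface fish liver with 2 libraries, and H3K4me3 and H3K27ac of all 3 morphs with 2 libraries each, except 3 each in Tinaja) served only to annotate the regions. Surface H3K27me3 libraries also carry the number 2399. For H3K4me3 and H3K27ac, the caves share only a part of their label numbers and share none with surface fish. Morph and label number cannot be told apart in those pooled lists. No H3K4me3 or H3K27ac library carries the number 2399. Mark and label number therefore go together wherever H3K27me3 is set beside an active mark of the same morph. Chromatin came from whole livers, with 200000 cells per sample, so a mark in few cells and a weak mark in many cells cannot be told apart. The labels do not say whether libraries came from separate fish.

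H3K27me3 is trimethylation of lysine 27 of histone H3, written by Polycomb repressive complex 2 and typical of silenced developmental genes. In differentiated tissue such as liver it holds genes of other lineages off, often as broad domains over CpG-rich promoters. H3K4me3 marks active or poised promoters, and H3K27ac, carried on the same lysine as H3K27me3, marks active promoters and enhancers. Promoters that carry H3K4me3 together with H3K27me3 are called bivalent, although in whole tissue the marks can also come from different cells or alleles.

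Each cave had 1 pooled list per mark, which leaves no spread between replicates, and no p-values are given. Intervals are exact binomial at 95%. They cover counting error only and treat regions as independent, which neighbouring regions are not, so the true uncertainty is larger. Lists give positions without height or significance and their read depth is unknown. A missing peak therefore says that the authors' list has none, and the mark itself may still be present. Positions are counted from 1 on the coordinates of the lists, and the sources used here do not name their genome build. Genes are not named, since the gene table at hand (AstMex3_surface) is on other coordinates: on chromosome 1 it has genes up to 134 Mb, while the last peak ended at 26.95 Mb. For the same reason the labelled tissue could not be checked against liver genes.

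Most H3K27me3 was listed in both caves. Regions of both caves numbered 66970, or 52.6% of all regions (interval 52.4 to 52.9%), and held 67.4% of the merged length of 68.1 Mb. Pachón-only regions numbered 29562, which is 23.2% of all regions (23.0 to 23.5%), and held 16.1% of the length. Tinaja-only regions numbered 30710, which is 24.1% (23.9 to 24.4%), and held 16.4% of the length. The single-cave classes were thus of nearly equal number. This follows the lists, which were nearly equal in length at 52.6 Mb in Pachón and 52.9 Mb in Tinaja.

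Taken peak by peak, 68636 Pachón peaks, 69.9% of the list (69.6 to 70.2%), met a Tinaja peak, and 68659 Tinaja peaks, 69.1% of the list (68.8 to 69.4%), met a Pachón peak. In bases, 37.4 Mb were covered in both caves, 71.1% of the Pachón and 70.6% of the Tinaja length. The Jaccard index, the shared length over the length covered in either cave, was 0.549.

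The regions of a single cave were short. Their median width was 333 bp in Pachón only (quartiles 281 and 414 bp) and 332 bp in Tinaja only (281 and 408 bp), against 529 bp in regions of both caves (409 and 766 bp). A region of both caves spans the peaks of 2 lists and is therefore wider in part by construction, so peaks of each list were also compared by their own width. Of peaks of 200 to 299 bp, 42.7% in Pachón and 38.7% in Tinaja met a peak of the other cave. Of peaks of 2000 bp or more, 1595 of 1605 in Pachón (99.4%) and 1543 of 1547 in Tinaja (99.7%) did so.

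Among merged regions the same gradient held in all 6 bins of width. At 200 to 299 bp, Pachón-only regions were 45.0%, Tinaja-only regions 46.9% and regions of both caves 8.10% of 22421 regions. At 400 to 599 bp, these shares were 16.8%, 17.2% and 66.0% of 38272 regions. At 1000 to 1999 bp, 211 Pachón-only regions made up 2.72% (2.37 to 3.11%) and 113 Tinaja-only regions 1.46% (1.20 to 1.75%) of 7750 regions. At 2000 bp or more, 10 regions were Pachón only, 4 were Tinaja only and 2003 of 2017 (99.3%) belonged to both caves. From 600 to 999 bp, Pachón-only regions made up 8.20% (7.82 to 8.58%) and Tinaja-only regions 7.55% (7.19 to 7.92%). Tinaja-only regions were thus the more numerous below 600 bp and Pachón-only regions above it, with intervals that did not overlap at 1000 to 1999 bp.

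**Figure D1:**
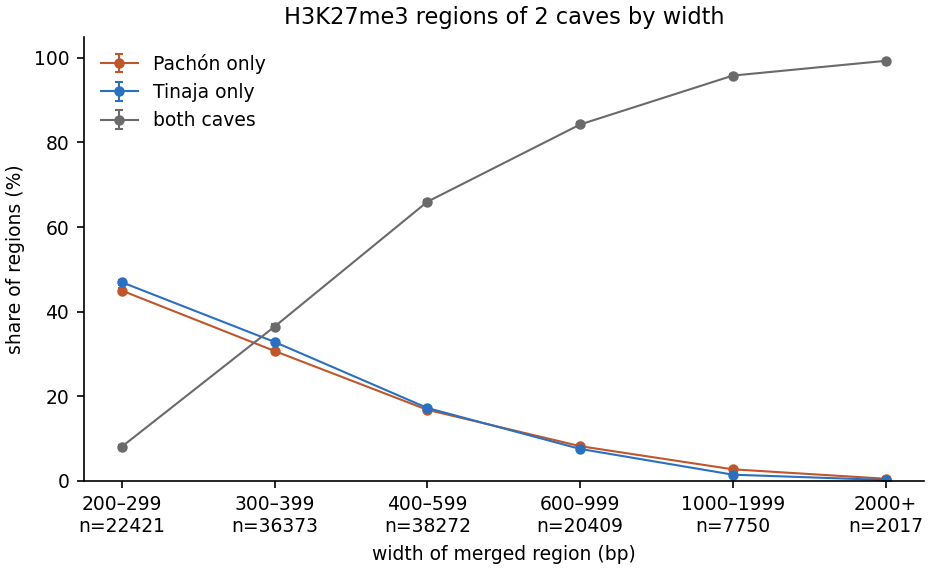
Share of H3K27me3 regions (y axis, percent) that were Pachón only, Tinaja only or of both caves in 6 bins of region width (x axis, bp), with exact binomial 95% intervals as bars. Single-cave regions made up 45.0% (Pachón) and 46.9% (Tinaja) of the narrowest regions and under 1% each of those of 2000 bp or more.

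Where both caves had a region, its extent was much alike. In 64024 of the 66970 regions (95.6%) each cave had 1 peak. The covered length had a median of 466 bp in Pachón and 474 bp in Tinaja, and the ratio of Pachón to Tinaja had a median of 0.993, with the central 90% of regions between 0.653 and 1.49. In 43.4% of regions the 2 lengths were within 10% of each other. Pachón covered at least 2-fold more than Tinaja in 907 regions (1.35%), and Tinaja covered at least 2-fold more than Pachón in 948 (1.42%).

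Surface fish were used to ask which single-cave regions also had the mark in the river form. A surface H3K27me3 peak was listed at 11937 Pachón-only regions, 40.4% (39.8 to 40.9%), and at 11667 Tinaja-only regions, 38.0% (37.4 to 38.5%), against 52395 regions of both caves, 78.2% (77.9 to 78.5%). At such single-cave regions the surface list had a peak together with the list of one cave form, while the list of the other had none. The gap to regions of both caves was smaller at equal width but did not close. At 400 to 599 bp the shares were 50.2% in Pachón only, 48.7% in Tinaja only and 77.0% in both. At 1000 bp or more they were 73.3% of 221 Pachón-only regions (67.0 to 79.0%) and 59.0% of 117 Tinaja-only regions (49.5 to 68.0%), against 96.4% of 9429 regions of both caves. Weighted to the widths of regions of both caves, a setting added after the data were seen, the shares were 54.0% in Pachón only and 51.3% in Tinaja only. Pachón-only regions had a higher share than Tinaja-only regions in every bin below 2000 bp, but the intervals were apart only in the narrowest one, at 29.7% (28.8 to 30.6%) in Pachón only and 27.1% (26.2 to 28.0%) in Tinaja only.

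**Figure D2:**
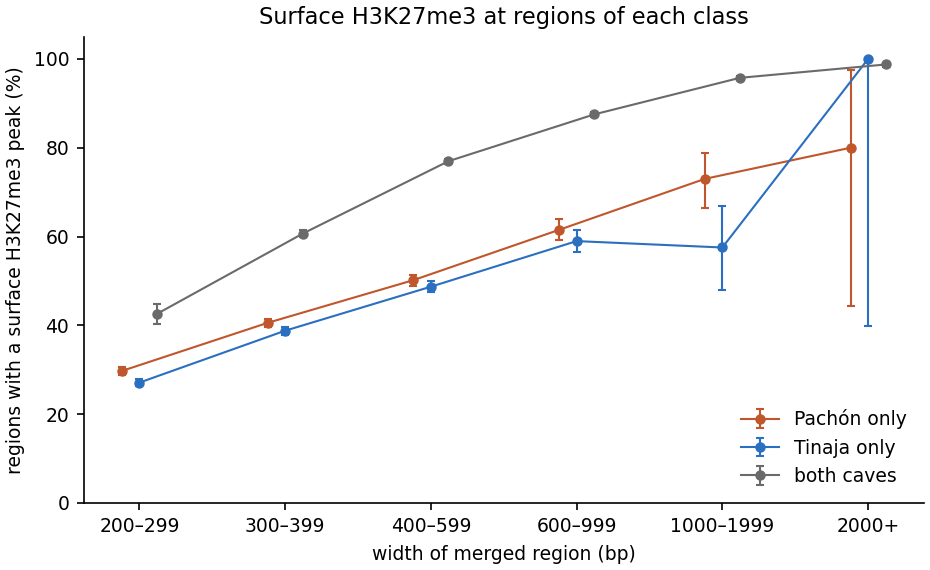
Share of H3K27me3 regions with a surface H3K27me3 peak (y axis, percent) by region width (x axis, bp) for Pachón only, Tinaja only and both caves, with exact binomial 95% intervals. Up to 999 bp the share is higher in each wider bin in all 3 classes, and at 400 to 599 bp it was 50.2% in Pachón only, 48.7% in Tinaja only and 77.0% in regions of both caves.

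Most single-cave regions lay over 1 kb from any peak of the other cave. The nearest Tinaja peak was at a median of 3.87 kb from a Pachón-only region and within 1 kb in 18.5% of them. The nearest Pachón peak was at a median of 3.74 kb from a Tinaja-only region and within 1 kb in 17.2%. For scale, the median distance from a peak to the nearest other peak of its own list was 2.39 kb in Pachón and 2.34 kb in Tinaja. Leaving out those within 1 kb left 24128 Pachón-only and 25453 Tinaja-only regions.

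The active marks of each morph were then laid over the regions. A share is compared here between classes within 1 list, because the active lists differ in length (H3K4me3 had 64432 peaks in Pachón, 136219 in Tinaja and 56323 in surface fish, and H3K27ac had 93527 in Pachón, 117125 in Tinaja and 70089 in surface fish). Over all widths, regions of both caves had the highest share in every list, but they were also the widest class. Pachón H3K4me3 lay at 12.8% of Pachón-only regions, 8.30% of Tinaja-only regions and 31.3% of regions of both caves. Tinaja H3K4me3 lay at 28.8% of Pachón-only, 29.7% of Tinaja-only and 61.3% of regions of both caves. Pachón H3K27ac lay at 11.5%, 10.4% and 16.1% of Pachón-only, Tinaja-only and shared regions, and Tinaja H3K27ac at 16.8%, 16.7% and 30.2%. In the bin of width given next these gaps were smaller, and for some lists they closed or turned round. Among regions of 1000 bp or more some gaps were wider than over all widths and others smaller. Tinaja H3K4me3 lay there at 44.3% of Pachón-only and 93.1% of shared regions, and Tinaja H3K27ac at 13.1% and 45.0%, both wider gaps. Pachón H3K4me3 lay at 68.3% of Pachón-only and 77.0% of shared regions of that width, a smaller gap.

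At 400 to 599 bp, Pachón H3K4me3 lay at 18.2% (17.3 to 19.2%) of Pachón-only regions, 11.8% (11.0 to 12.6%) of Tinaja-only regions and 19.5% of regions of both caves, so Pachón-only regions were close to those of both caves. Tinaja H3K4me3 at this width lay at 40.3% of Pachón-only, 44.3% of Tinaja-only and 56.9% of regions of both caves, and that gap remained. Surface H3K4me3 lay at 14.6% (13.7 to 15.4%) of Pachón-only, 9.97% (9.26 to 10.7%) of Tinaja-only and 11.1% (10.7 to 11.5%) of regions of both caves, so the order of Pachón-only and shared regions was turned round. Surface H3K27ac did the same, at 8.50% (7.83 to 9.21%), 5.69% (5.14 to 6.28%) and 7.25% (6.93 to 7.58%) of Pachón-only, Tinaja-only and shared regions. Pachón H3K27ac lay at 13.4%, 12.3% and 15.5% of these classes and Tinaja H3K27ac at 20.3%, 21.7% and 27.6%, with shared regions still the highest. The turned order of the surface lists did not hold at all widths. At 1000 bp or more, surface H3K4me3 lay at 50.2% (43.4 to 57.0%) of Pachón-only and 57.9% (56.9 to 58.9%) of shared regions. Surface H3K27ac lay at 10.9% (7.08 to 15.7%) and 9.74% (9.14 to 10.4%) of these, with overlapping intervals.

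Over all widths, Pachón-only regions carried the surface lists more often than Tinaja-only regions as well: surface H3K4me3 at 10.1% against 6.41% of Tinaja-only regions, and surface H3K27ac at 6.86% against 4.64%. For Pachón and surface H3K4me3, and for Pachón and surface H3K27ac, the share at Pachón-only regions exceeded that at Tinaja-only regions under all 5 alternative settings. One of these, active lists of equal length, left the surface lists uncut because they are the shortest. It repeats their main shares and is no check of them. The Tinaja lists gave no steady order: for Tinaja H3K4me3 Pachón-only regions were above in 2 of 5 settings, and for Tinaja H3K27ac in 4 of 5.

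Among single-cave regions of 1000 bp or more, each cave's H3K4me3 list met a larger share of that cave's regions than of the other cave's. Pachón H3K4me3 was listed at 68.3% (61.8 to 74.4%) of the 221 broad Pachón-only regions and at 42.7% (33.6 to 52.2%) of the 117 broad Tinaja-only regions. Tinaja H3K4me3 was listed at 44.3% (37.7 to 51.2%) of the broad Pachón-only regions and at 78.6% (70.1 to 85.7%) of the broad Tinaja-only regions. Regions of both caves of this width had 77.0% with Pachón and 93.1% with Tinaja H3K4me3. For H3K27ac, the Pachón list met 14.5% (10.1 to 19.8%) of broad Pachón-only and 12.0% (6.70 to 19.3%) of broad Tinaja-only regions. The Tinaja H3K27ac list met 13.1% (8.97 to 18.3%) of broad Pachón-only and 25.6% (18.0 to 34.5%) of broad Tinaja-only regions, so the intervals barely overlapped for Tinaja and overlapped widely for Pachón.

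**Figure D3:**
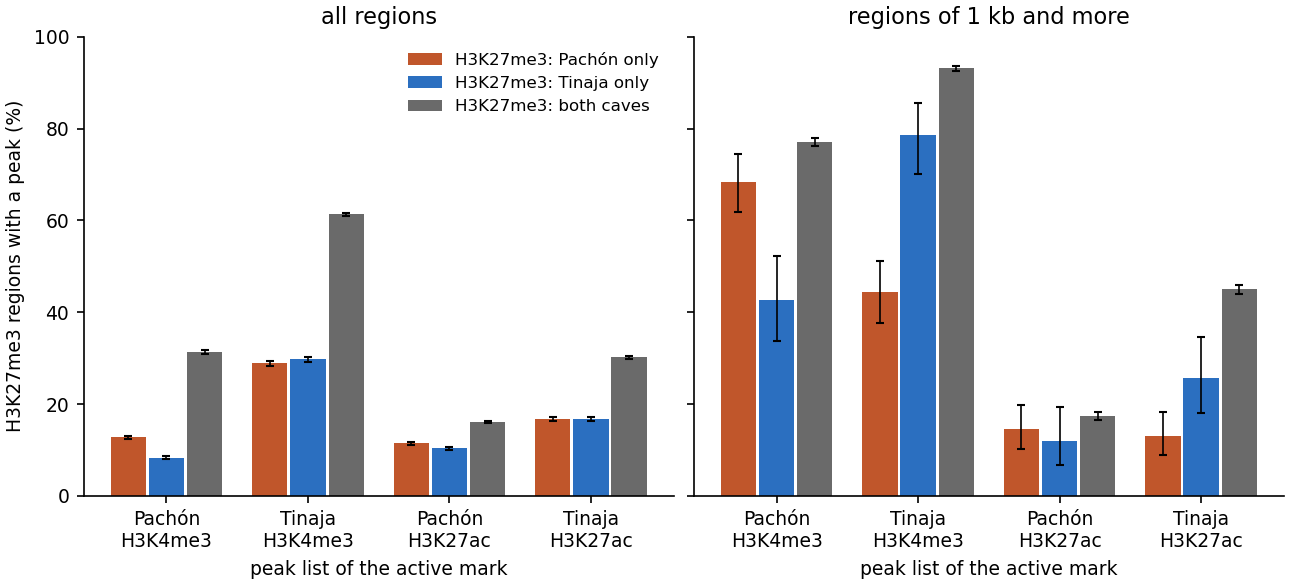
Share of H3K27me3 regions with a peak of each cave's H3K4me3 and H3K27ac lists (y axis, percent; x axis, list) for Pachón only, Tinaja only and both caves, over all regions and over regions of 1000 bp or more, with exact binomial 95% intervals. Among broad regions, Pachón H3K4me3 was listed at 68.3% of Pachón-only and 42.7% of Tinaja-only regions, and Tinaja H3K4me3 at 44.3% and 78.6%.

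The marks of the cave that carried H3K27me3 split its regions into states. With the Pachón lists, 80.4% of Pachón-only regions had neither active mark, 8.12% had H3K4me3 without H3K27ac, 6.82% had H3K27ac without H3K4me3 and 4.64% had both. With the Tinaja lists, which are longer, 63.7% of Tinaja-only regions had neither, 19.5% had H3K4me3 alone, 6.55% had H3K27ac alone and 10.2% had both. Regions of both caves, which were wider, were more often in the state of H3K4me3 without H3K27ac, 22.4% with the Pachón and 35.5% with the Tinaja lists. No active mark in any of the 6 lists was found at 17634 Pachón-only regions (59.7%) and 18593 Tinaja-only regions (60.5%), against 20746 regions of both caves (31.0%). A peak in 1 list and in no other of the 9 was the state of 11795 Pachón-only regions (39.9%) and 12702 Tinaja-only regions (41.4%).

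To ask whether a cave's own H3K4me3 went with its own H3K27me3, the active lists of both caves were merged and classed in the same way. H3K4me3 regions listed only in Pachón met 1004 Pachón-only H3K27me3 regions (3.40%), 404 Tinaja-only (1.32%) and 1505 of both caves (2.25%), where 2.29% of all H3K27me3 regions met one. H3K4me3 regions listed only in Tinaja met 5753 Pachón-only (19.5%), 6954 Tinaja-only (22.6%) and 21876 regions of both caves (32.7%), where 27.2% of all regions met one. The odds that a single-cave H3K27me3 region met H3K4me3 of the same cave rather than of the other gave an odds ratio of 3.00 (normal 95% interval on the log scale 2.66 to 3.39). It was 1.99 (1.78 to 2.22) with the active lists cut to equal length by width, and 2.90 when pooled over bins of region width. Within each list, single-cave H3K4me3 thus met a larger share of same-cave than of other-cave H3K27me3 regions. In counts, Pachón-only H3K27me3 regions still met Tinaja-only H3K4me3 more often than Pachón-only H3K4me3. Both single-cave shares with Tinaja-only H3K4me3 lay below the 27.2% over all regions. With active lists of equal length, any Tinaja H3K4me3 lay at 9.18% of Tinaja-only and 10.3% of Pachón-only regions. Any Pachón H3K4me3 lay at 11.2% of Pachón-only and 7.18% of Tinaja-only regions. Most single-cave regions met neither kind.

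For H3K27ac the interval of the odds ratio included 1 in the main setting. H3K27ac regions listed only in Pachón met 547 Pachón-only regions (1.85%) and 588 Tinaja-only regions (1.91%), where 2.08% of all H3K27me3 regions met one. Those listed only in Tinaja met 2103 Pachón-only (7.11%) and 2551 Tinaja-only regions (8.31%), where 12.3% of all regions met one. The odds ratio was 1.13 (0.991 to 1.29), and it turned to 0.941 (0.822 to 1.08) with active lists of equal length. Its interval lay just above 1 with peaks up to 1 kb apart merged, at 1.16 (1.01 to 1.34). So it did for regions over 1 kb from the other cave's peaks, at 1.16 (1.01 to 1.34). All of these shares lay below the value over all H3K27me3 regions, most of which were the wider regions of both caves. The part of width in this was not tested.

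The 1004 regions with H3K27me3 and H3K4me3 listed only in Pachón were also compared with surface fish. Of them, 58.7% (55.5 to 61.7%) had surface H3K27me3 and 31.4% (28.5 to 34.3%) surface H3K4me3. Of the 6954 regions with both marks listed only in Tinaja, 48.0% (46.8 to 49.2%) had surface H3K27me3 and 8.15% (7.52 to 8.82%) surface H3K4me3. The median width was 417.5 bp at the 1004 regions and 376 bp at the 6954 regions, and the part of width in these shares was not tested. Where the caves were crossed, surface H3K4me3 lay at 9.11% (8.38 to 9.88%) of the 5753 regions with Pachón-only H3K27me3 and Tinaja-only H3K4me3. It lay at 18.6% (14.9 to 22.7%) of the 404 regions with Tinaja-only H3K27me3 and Pachón-only H3K4me3. Surface H3K4me3 was thus more frequent with H3K4me3 of the Pachón list, the shorter one, whichever cave had the H3K27me3. H3K4me3 listed in Pachón and surface fish but not in Tinaja lay at 340 Pachón-only regions (1.15%), 78 Tinaja-only regions (0.254%) and 267 regions of both caves (0.399%).

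A strict exchange of active marks for H3K27me3 between caves was rare. It required both active marks in the other cave and in surface fish, and neither in the cave with H3K27me3. Surface active lists are the shortest, and the part of that requirement in the low counts was not tested. Single active marks listed only in the other cave were more frequent at single-cave regions than this strict exchange, as given above. They were less frequent there than at regions of both caves, which were wider. Both active marks in Tinaja and surface fish and neither in Pachón were found at 37 Pachón-only regions (0.125%, interval 0.0881 to 0.172%), against 31 Tinaja-only regions (0.101%) and 78 of both caves (0.116%). The mirror pattern, both active marks in Pachón and surface fish and neither in Tinaja, was found at 7 Tinaja-only regions (0.0228%, 0.00916 to 0.0470%), against 18 Pachón-only regions (0.0609%) and 17 of both caves (0.0254%). The interval of the first share held the shares of the other classes, and the second share was the lowest of the 3 classes. Examples, picked after the values were seen as the widest placed ones, show what such a site looks like. At chr24:18318407-18319094, 688 bp listed for H3K27me3 in Pachón and for 66.4% of its length in surface fish, Tinaja H3K4me3 covered 84.0% and Tinaja H3K27ac 70.1%, and Pachón had neither. Surface H3K4me3 covered 67.9% and surface H3K27ac 53.9% of it. At chr3:65932104-65932788, 685 bp listed for H3K27me3 in Pachón and for 92.7% of its length in surface fish, Tinaja H3K4me3 covered 97.2% and Tinaja H3K27ac 92.4%, and Pachón had neither. Surface H3K4me3 covered 71.2% and surface H3K27ac 47.4% of it. At chr15:18917259-18917862, 604 bp listed for H3K27me3 in Tinaja alone, H3K4me3 and H3K27ac of Pachón and of surface fish each covered 100% and Tinaja had neither.

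The widest single-cave regions on placed chromosomes show how they looked one by one. At chr6:22868367-22871196, a Pachón-only region of 2830 bp that lay 0.587 kb from the nearest Tinaja peak, Pachón H3K4me3 covered 99.6% and Tinaja H3K4me3 0%. Surface H3K27me3 covered 88.5% and surface H3K4me3 92.2% of it, so surface fish were like Pachón there. At chr1:5494262-5497032, 2771 bp and 4.59 kb from a Tinaja peak, Pachón H3K4me3 covered 99.4%, Tinaja H3K4me3 0% and surface H3K4me3 30.3%, with no surface H3K27me3. At chr23:1068803-1070792, 1990 bp, Pachón H3K4me3 covered 90.2%, Tinaja H3K4me3 12.1% and surface H3K27me3 97.3%. None of these 3 had an H3K27ac peak in any morph.

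The remaining one was of another kind. At chr8:24708497-24710944, 2448 bp and 20.8 kb from the nearest Tinaja peak, Tinaja H3K4me3 covered 99.3% and Tinaja H3K27ac 97.1%, while surface fish had 97.4% and 89.8% with no H3K27me3. Pachón had H3K27me3 over the whole region, with H3K4me3 over 34.4% and H3K27ac over 29.2%. Pachón was thus the morph that stood apart at this site.

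The 4 widest Tinaja-only regions on placed chromosomes were shorter, from 1572 to 1689 bp, and none lacked H3K4me3 in Pachón. Wider ones, up to 3279 bp, lay on unplaced scaffolds. Of all 117 Tinaja-only regions of 1000 bp or more, 42.7% had Pachón H3K4me3, so these 4 do not stand for the class. At chr11:4853991-4855679, 1689 bp, H3K4me3 covered 76.1% in Pachón and 92.6% in Tinaja, and surface H3K27me3 covered 94.6%. At chr6:8624612-8626253, 1642 bp, H3K4me3 covered 50.1% in Pachón and 71.4% in Tinaja, with no surface peak of any mark. At chr7:8005662-8007246, 1585 bp and 0.904 kb from a Pachón peak, it covered 96.7% in Pachón and 97.4% in Tinaja, again with no surface peak. At chr10:2261946-2263517, 1572 bp, it covered 42.9% in Pachón and 86.0% in Tinaja, and this was the only one with H3K27ac, over 34.6% in Tinaja. H3K4me3 was thus listed in both caves at all 4. The same held for the Pachón-only regions on chromosomes 23 and 8 above, but not for those on chromosomes 6 and 1.

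The widest placed regions of both caves were covered over most of their length by H3K27me3 in every morph, and less evenly by H3K4me3 in surface fish. The longest placed one, chr22:9949984-9957278, 7295 bp, was covered by H3K27me3 to 100% in Pachón, 98.6% in Tinaja and 92.3% in surface fish. H3K4me3 covered 98.0%, 94.1% and 83.6% of it in Pachón, Tinaja and surface fish. The next 3 in width, at chr20:13679271-13685645, chr16:18678704-18684816 and chr5:23103936-23110039, had H3K27me3 over 97.0 to 100% in Pachón, 81.3 to 99.0% in Tinaja and 78.1 to 99.3% in surface fish. H3K4me3 covered 93.1 to 99.9% of them in Pachón, 94.0 to 99.9% in Tinaja and 46.1 to 97.1% in surface fish. H3K27ac covered at most 25% in Pachón and 41.7% in Tinaja of any of these regions.

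Peaks up to 1 kb apart were joined into 104702 domains to see where the caves differed in extent. Of the 58129 domains with peaks in both caves, 1791 (3.08%) were covered at least 2-fold more in Pachón and 1983 (3.41%) at least 2-fold more in Tinaja. Among the 3759 domains with 2 kb or more covered in a cave, 156 (4.15%, 3.54 to 4.84%) were at least 2-fold longer in Pachón and 69 (1.84%, 1.43 to 2.32%) at least 2-fold longer in Tinaja, and the intervals did not overlap. In these counts, 35 had no Tinaja peak and 11 no Pachón peak. The large domains that differed were thus more often longer in Pachón, although differing domains of all sizes were slightly more numerous in Tinaja.

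**Figure D4:**
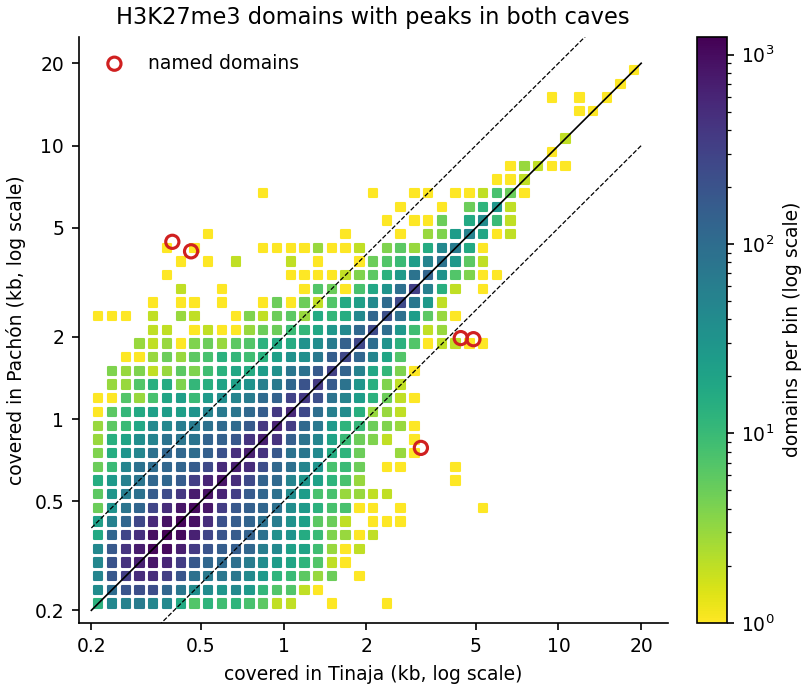
Number of H3K27me3 domains with peaks in both caves (colour, log scale) by the length covered in Pachón (y axis, kb, log scale) and in Tinaja (x axis, kb, log scale), with lines at equal and at 2-fold different length and circles on the named domains with peaks in both caves. Most of the 58129 domains lie between the 2-fold lines, with 1791 at least 2-fold longer in Pachón and 1983 at least 2-fold longer in Tinaja.

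On placed chromosomes the largest differences lay in domains of a few kb. At chr23:22871168-22878397, H3K27me3 covered 4.09 kb in 7 peaks in Pachón and 0 kb in Tinaja, with 1.99 kb in surface fish. Pachón H3K4me3 covered 4.34 kb there and Tinaja H3K4me3 0 kb, so no Tinaja peak of either mark was listed in this stretch. At chr18:9104108-9109765, H3K27me3 covered 4.45 kb in Pachón, 0.394 kb in Tinaja and 3.71 kb in surface fish, while H3K4me3 covered 2.76 kb in Pachón and 3.61 kb in Tinaja. At chr2:5992678-5997634, H3K27me3 covered 4.11 kb in Pachón, 0.461 kb in Tinaja and 4.96 kb in surface fish, with H3K4me3 over 3.88 kb in Pachón and 2.53 kb in Tinaja. These last domains had H3K4me3 in Tinaja, where little H3K27me3 was listed. The other domain named, chr1:5493042-5497032, holds the Pachón-only region on chromosome 1 given above and was covered over 3.66 kb in Pachón and 0 kb in Tinaja and surface fish.

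In the other direction the largest placed differences were smaller. At chr18:6861576-6866492, H3K27me3 covered 1.96 kb in Pachón, 4.91 kb in Tinaja and 4.28 kb in surface fish, and H3K4me3 covered 4.51 kb in Pachón and 4.92 kb in Tinaja. At chr18:7894732-7897372, H3K27me3 covered 0 kb in Pachón and 2.53 kb in Tinaja, while H3K4me3 covered 2.58 kb in Pachón, 2.49 kb in Tinaja and 2.53 kb in surface fish. At chr6:23558055-23562537, H3K27me3 covered 1.98 kb in Pachón, 4.41 kb in Tinaja and 4.35 kb in surface fish. H3K4me3 was thus listed in both caves at these 3 domains whatever the extent of H3K27me3. At chr7:22173151-22179025, H3K27me3 covered 0.785 kb in Pachón and 3.16 kb in 5 Tinaja peaks, and no active mark was listed in any morph.

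Single-cave regions were not spread evenly along the genome. The neighbour of a Pachón-only region was Pachón only in 30.2% of cases, 1.30 times the share of that class among all regions, and Tinaja only in 22.0%, 0.913 times. The neighbour of a Tinaja-only region was Tinaja only in 30.1%, 1.25 times, and Pachón only in 21.2%, 0.910 times. Regions of both caves lay beside each other in 56.6%, 1.07 times their share. Regions of the same class thus tended to lie side by side in all 3 classes.

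By chromosome, Pachón-only regions made up from 20.7% (chromosome 11) to 28.3% (chromosome 21) of regions, and Tinaja-only regions from 22.2% (chromosome 12) to 27.5% (chromosome 11). The number of Pachón-only per Tinaja-only region ran from 0.752 on chromosome 11 to 1.15 on chromosome 12. Regions of both caves were least frequent on chromosome 21, at 46.6%, and most frequent on chromosome 3, at 54.5%. Regions on the 25 placed chromosomes were 23.1% Pachón only and 24.7% Tinaja only, and those on 2103 unplaced scaffolds 23.6% Pachón only and 22.9% Tinaja only.

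Runs of 8 or more consecutive regions of the same single-cave class numbered 23 in Pachón, with 238 regions, and 34 in Tinaja, with 332 regions. Of the 238 regions in Pachón runs, 48.3% (41.8 to 54.9%) met Tinaja H3K4me3, against 28.8% of all Pachón-only regions, and 35.3% (29.2 to 41.7%) met Tinaja H3K27ac, against 16.8%. Pachón's own H3K4me3 met 18.5% (13.8 to 24.0%), against 12.8%, and its own H3K27ac 21.4% (16.4 to 27.2%), against 11.5%. Of the 332 regions in Tinaja runs, 11.4% (8.23 to 15.4%) met Pachón H3K4me3, against 8.30% of all Tinaja-only regions, and 38.0% (32.7 to 43.4%) met Tinaja H3K4me3, against 29.7%. H3K27ac met 15.4% (11.7 to 19.7%) of them in Pachón, against 10.4%, and 24.4% (19.9 to 29.4%) in Tinaja, against 16.7%. Regions in runs were somewhat wider, with medians of 385 bp in Pachón and 358.5 bp in Tinaja, and the part of width in these shares was not tested.

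At 11 of the 23 Pachón runs at least 50% of the regions met Tinaja H3K4me3, while 2 of the 34 Tinaja runs had Pachón H3K4me3 at as many. The longer Tinaja list moves with this difference, and its part was not tested. The comparison of runs was added after the data were seen.

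In windows of 100 kb with 8 or more regions, 7856 in all, 196 were at least 60% Pachón only and 182 at least 60% Tinaja only, against 2906 at least 60% of both caves. The 4 placed windows with the largest excess of Pachón-only regions over the genome share lay on chromosomes 4, 5 and 19. On chromosome 5 from 20700001 to 20800000, 14 of 15 regions were Pachón only, with 15 H3K27me3 peaks in Pachón, 1 in Tinaja and 19 in surface fish. Of these 14 regions, 13 met surface H3K27me3, 2 met Pachón H3K4me3, 10 met Tinaja H3K4me3 and 9 met Tinaja H3K27ac. Tinaja thus had active peaks at most sites of this window where Pachón and surface fish had H3K27me3.

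In the other 3 of these windows Tinaja H3K4me3 also met more Pachón-only regions than Pachón H3K4me3 did, and the share with surface H3K27me3 varied. The Tinaja list is the longer one, and over the genome it met 28.8% of Pachón-only regions, against 12.8% for the Pachón list. With active lists of equal length these shares were 10.3% and 11.2%. The part of list length in the counts of these windows was not tested. On chromosome 19 from 11100001 to 11200000, 16 of 25 regions were Pachón only, of which 3 met Pachón H3K4me3, 13 met Tinaja H3K4me3 and 7 met surface H3K27me3. On chromosome 5 from 12800001 to 12900000, 19 of 31 regions were Pachón only, of which 1 met Pachón H3K4me3, 13 met Tinaja H3K4me3 and 9 met surface H3K27me3. On chromosome 4 from 6400001 to 6500000, 22 of 39 regions (56.4%, below the 60% used above) were Pachón only and 17 were of both caves. There 20 of the 22 met surface H3K27me3, 4 met Pachón H3K4me3 and 11 met Tinaja H3K4me3. H3K27ac in that window met 19 of the 22 regions in Pachón, 20 in Tinaja and 18 in surface fish. In Pachón it thus overlapped H3K27me3 of the same cave at most of them. Pachón H3K27ac met 1 to 5 Pachón-only regions in each of the other 3 windows.

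The 4 placed windows with the largest excess of Tinaja-only regions lay on chromosomes 24, 21, 6 and 16. On chromosome 24 from 7500001 to 7600000, 20 of 22 regions were Tinaja only, with 2 H3K27me3 peaks in Pachón, 22 in Tinaja and 21 in surface fish. Of the 20, 15 met surface H3K27me3, 1 met Pachón H3K4me3, 3 met Tinaja H3K4me3 and 0 met H3K27ac of any morph. On chromosome 21 from 10600001 to 10700000, 18 of 22 regions were Tinaja only, of which 4 met surface H3K27me3, 4 met Pachón H3K4me3 and 10 met Tinaja H3K4me3. On chromosome 6 from 36800001 to 36900000, 19 of 27 regions were Tinaja only, of which 4 met surface H3K27me3, 1 met Pachón H3K4me3 and 6 met Tinaja H3K4me3. On chromosome 16 from 7900001 to 8000000, 18 of 25 regions were Tinaja only, of which 9 met surface H3K27me3, 0 met Pachón H3K4me3 and 1 met Tinaja H3K4me3. Pachón H3K4me3 met 0 to 4 regions in each of these windows, against 10 to 13 for Tinaja H3K4me3, the longer list, in the Pachón-only windows. Over the genome these lists met 8.30% of Tinaja-only and 28.8% of Pachón-only regions. With active lists of equal length these shares were 7.18% and 10.3%. The part of list length in the counts of these windows was not tested either.

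**Figure D5:**
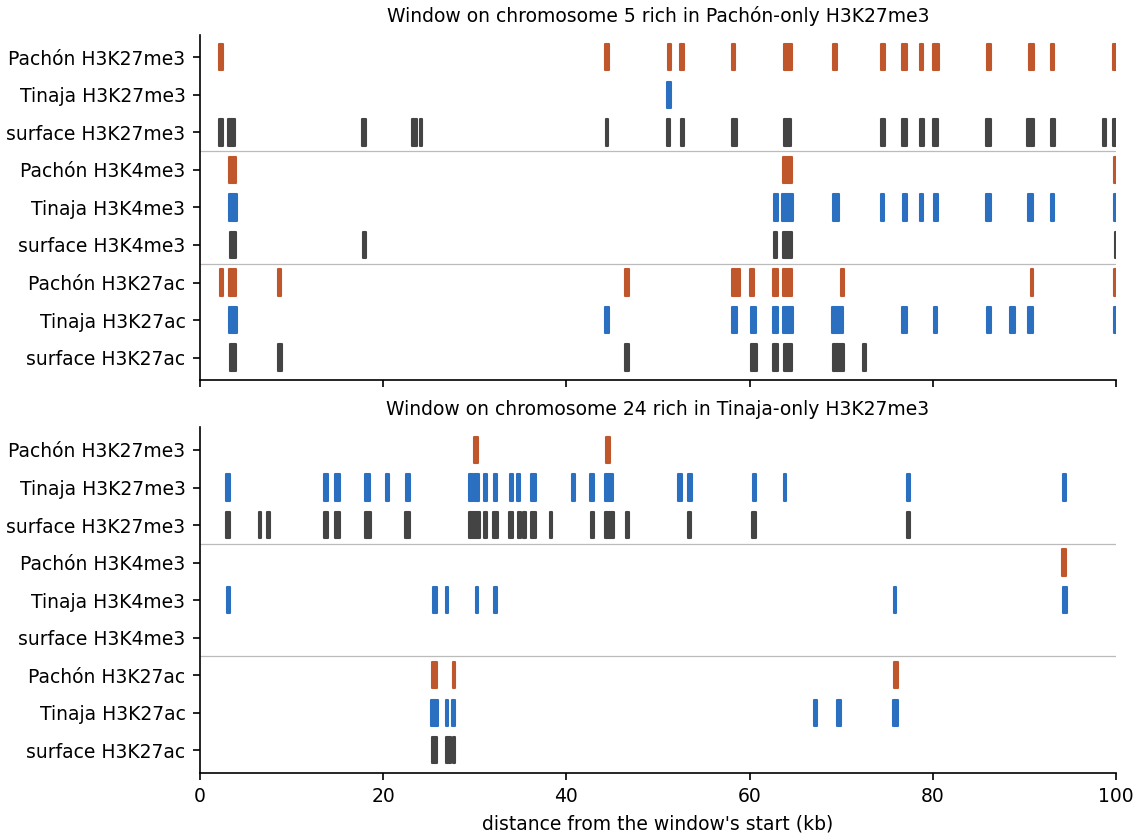
Peaks of the 9 lists (rows) along a pair of 100 kb windows (x axis, distance from the window's start in kb), drawn to scale as bars, on chromosome 5 (14 of 15 regions Pachón only) and chromosome 24 (20 of 22 regions Tinaja only). H3K27me3 was listed in Pachón and surface fish but 1 time in Tinaja in the first window, and in Tinaja and surface fish but 2 times in Pachón in the second.

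The longest placed runs of Pachón-only regions held 16, 16 and 15 regions. The run at chr5:20752441-20807220 overlaps the chromosome 5 window above, and 15 of its 16 regions met surface H3K27me3 and 12 met Tinaja H3K4me3. In the run at chr8:6457265-6526709, 12 of 16 regions met surface H3K27me3, 1 met Pachón H3K4me3 and 5 met Tinaja H3K4me3. In the run at chr19:11117097-11173382, 7 of 15 met surface H3K27me3 and 13 met Tinaja H3K4me3. Over its whole length, H3K4me3 had 7 peaks in Pachón and 22 in Tinaja, and H3K27ac 10 in Pachón and 25 in Tinaja.

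Of Tinaja-only regions, the longest placed runs held 14, 14 and 13 regions. The run at chr9:28862161-28964935 was 102.8 kb long and had H3K27ac peaks to the number of 10 in Pachón, 3 in Tinaja and 6 in surface fish, although the whole Tinaja H3K27ac list is the longest. H3K4me3 went the other way there, with 1 peak in Pachón, 7 in Tinaja and 4 in surface fish. Of its 14 regions, 1 met surface H3K27me3, 4 met Pachón H3K27ac and 2 met Tinaja H3K27ac. Pachón H3K4me3 met 0 of these regions and Tinaja H3K4me3 6. In the run at chr16:37278440-37373560, 10 of 14 regions met surface H3K27me3. In the run at chr9:10988355-11039154, 3 of 13 met surface H3K27me3, and no H3K27ac was listed in any morph. The runs thus differed among themselves in whether surface fish shared the H3K27me3.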

How the data were processed

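Livers were profiled by chromatin immunoprecipitation and 50 bp single reads, per the labels. Tools named in the submitters' processing notes are MACS2, SAMtools, Bowtie2 and bcl2fastq 2.20. Settings, other versions, the genome build and how libraries were pooled were not given in the sources used here. Per morph and mark, the authors deposited 1 list of peak positions, with every score at 0, and read depth is unknown. The lists do not show whether all marks were called alike. Total chromatin was not analysed here.

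Overlap meant 1 bp or more. Shares have exact (Clopper-Pearson) 95% intervals, and odds ratios a normal interval on the log scale. Members, lists and alternatives were chosen with earlier results of these data known. By rule, the text names the 4 widest placed regions per class, the 4 domains with the largest difference in covered length each way, and the 4 windows of 100 kb with the largest excess of each single-cave class. Added after seeing the data were the exchange patterns with their examples, the 3 longest runs per cave, the shares in runs, the distance limit, the width weighting and the width bins of the odds ratio.

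The alternative settings were lists of equal length, the wider 50% of each list, overlap of 50%, merging within 1 kb, active lists of equal length, placed chromosomes, 1 kb windows, windows of 50 kb and domains without joining. Interval arithmetic was tested on simulated data (200 pairs of lists, 6 functions, 0 mismatches). Figures were drawn with Matplotlib 3.10.9, and values computed in Python 3.11.15 with SciPy 1.17.1 and NumPy 2.4.6.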

Additional observations from a re-analysis of the deposited data

How the results depend on the processing

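Under the alternatives, 48 values of the main results stayed within their interval or within 1.5 times a count, 25 moved and 1 reversed. The 48 include the single-cave counts under overlap of 50%, which stayed at 29562 and 30710. That setting only took regions out of the shared class, so it is no check of these counts. With the wider 50% of each list, regions numbered 13670 Pachón only, 14190 Tinaja only and 34608 of both caves, since fewer peaks entered. The share of peaks met was then 72.2% in Pachón and 71.4% in Tinaja, the Jaccard index 0.571, the share with surface H3K27me3 39.0% in Pachón only and 36.4% in Tinaja only, and the H3K4me3 odds ratio 3.94. Fixed 1 kb windows gave 101398 of both caves. Lists of equal length gave 69.6% of peaks met in each cave, a Jaccard index of 0.549 and a Tinaja-only median of 335 bp. Placed chromosomes gave 68.4% of Tinaja peaks met, a Jaccard index of 0.544 and a median of 523 bp in regions of both caves. Merging within 1 kb gave a Jaccard index of 0.547 and 39.4% of Pachón-only regions with surface H3K27me3. That share was 39.2% over 1 kb from Tinaja peaks, and 54.0% in Pachón only and 51.3% in Tinaja only when weighted by width. Cutting the active lists to equal length gave odds ratios of 1.99 for H3K4me3 and 0.941 for H3K27ac, the only reversal; the cause was not tested. Unjoined, 907 domains were at least 2-fold longer in Pachón and 948 in Tinaja. Single shares with an active mark moved in 58 cases and stayed in 32. The latter include the surface shares under active lists of equal length, a setting that left the surface lists uncut. With overlap of 50% required, 131 regions of both caves had no such pair of peaks. No paired analysis was possible because each group has 1 pooled list, and for the same reason no replicate could be left out. Unknown depth limits what the absence of narrow peaks shows.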
